A study of Mus musculus with 3 samples.

Results

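The cytosolic ribosomal protein genes encode the proteins of the ribosome's large subunit (symbols starting Rpl) and small subunit (symbols starting Rps). They were taken by symbol, keeping those with a UMI in each library, which gave 84 of the 22843 genes of the deposited table, 52 of the large and 32 of the small subunit. The rule uses no measured change, but it was set with earlier results of these data known. Of the 84, 83 are annotated as protein-coding and Rpl6l as a processed pseudogene. Rack1 (listed under its older symbol Gnb2l1) also codes for a ribosome-bound protein but has another symbol, and it appears below only as a non-member. No row matched the symbol Rps4l, so it was not analysed here.

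The study lowered the long non-coding RNA gene Gm4665 in the testis of ICR mice. At postnatal day 21, one testis received an AAV9 vector with a control hairpin (shCtrl) and a red fluorescent protein (RFP) gene, and the opposite testis a vector with a hairpin against Gm4665 and RFP. Somatic cells were removed, RFP-positive germ cells were sorted by FACS, and single-cell libraries were made with the 10x Genomics 3' version-2 kit, with 3 mice per condition according to the design text. The groups are shCtrl, Gm4665-shRNA1 (hairpin 1) and Gm4665-shRNA2 (hairpin 2), with 1 library each, so that no difference below has a replicate check and no test between conditions was possible. All 3 groups carry AAV9 and RFP, the animals of a library are pooled, both hairpins are set against the same control library, and the sources used here do not give the age at collection.

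A ribosome holds 1 copy of most of these proteins, and cells usually keep their mRNAs in step, among other means through a stretch of pyrimidines at the start of the mRNA that ties their translation to growth signals. In the testis, spermatogonia divide and grow, spermatocytes go through meiosis, and spermatids reshape and finally stop transcription. The X chromosome is silenced in meiosis, and several X-linked housekeeping genes have autosomal copies that are expressed in male germ cells. Rpl10l, a copy of X-linked Rpl10, is needed for male meiosis in mice, and Rpl39l, a copy of X-linked Rpl39, is part of a ribosome variant of spermatogenic cells.

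The start regions of these genes are shown because long pyrimidine runs are more frequent there in members than in all promoters, though in a minority of members. The X-linked genes and their copies also differ there. RefSeq promoter entries (build GRCm38.p6) were matched for 63 of the 84 members. Each line gives 40 bases before to 20 bases after the annotated start, 5′ to 3′, with the run of C and T that touches the 5 bases on either side of the start in capitals. Rpl13a is at chr7:45128726-45128785 on the minus strand, Rpl10 at chrX:74270776-74270835 on the plus strand and Rpl10l at chr12:66284382-66284441 on the minus strand. Rpl39 is at chrX:37085203-37085262 on the minus strand and Rpl39l at chr16:10170188-10170247 on the plus strand.
Rpl13a: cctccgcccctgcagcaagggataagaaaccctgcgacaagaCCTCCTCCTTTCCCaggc
Rpl10: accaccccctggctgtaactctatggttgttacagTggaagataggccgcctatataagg
Rpl10l: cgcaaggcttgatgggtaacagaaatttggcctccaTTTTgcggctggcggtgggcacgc
Rpl39: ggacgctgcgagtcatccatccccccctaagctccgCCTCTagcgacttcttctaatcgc
Rpl39l: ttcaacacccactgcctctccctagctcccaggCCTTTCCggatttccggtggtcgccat
Rpl13a, a large subunit protein gene with a run of 14 pyrimidines, was chosen after its sequence was seen as an example of a long run with CTTTC, which a minority of the members have, whereas the run at the annotated start is 1 base in Rpl10, 4 in Rpl10l, 5 in Rpl39 and 7 in Rpl39l. The median run of the 63 matched members was 5 pyrimidines, against 3 over all promoters. A run of at least 8 was present in 33.3% of these members and in 9.6% of 27025 promoters, 1 a gene. The letters CTTTC stood within 20 bases of the start on the transcribed strand in 28.6% of the members and 5.4% of all promoters, and on either strand in 33.3% and 9.9%. Of the 5 windows above, those of Rpl13a and Rpl39l hold CTTTC. The median number of CG steps in the 300 bases from 250 before to 50 after the start was 21 in members and 7 in all promoters. These are matches of letters, not measured binding or translation.

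The 3 libraries, in the order control, hairpin 1 and hairpin 2 that is used throughout, comprised 1418, 1732 and 1873 cells and 40405313, 38330044 and 44640351 UMIs, with medians of 19366, 14668 and 16518 UMIs per cell. Gm4665, the targeted RNA, was at 311, 52.8 and 79.1 CPM. CPM is the UMIs of a gene per 1000000 UMIs of the cells named. UMIs of a 3' library count mRNA molecules and were not divided by gene length. The libraries shared 6 cell barcodes (control and hairpin 1), 5 (control and hairpin 2) and 7 (both hairpins). Clusters were made without the ribosomal protein genes and Gm4665, and grouped by markers into classes resembling spermatogonia (54, 149 and 178 cells of the 3 libraries), leptotene to zygotene spermatocytes (85, 69 and 214), pachytene to diplotene spermatocytes (89, 209 and 250), round spermatids (429, 495 and 465) and elongating and condensing spermatids (605, 645 and 467). Cells carrying Sertoli and spermatid markers together (135, 69 and 116) were kept apart as mixed. Despite the sort for germ cells, 3 clusters had markers of B and plasma cells or macrophages (non-germ, 21, 96 and 183 cells). The non-germ clusters were too few in the control for a comparison. The 7 B and plasma cell markers in the table, none of which was at 0 in all libraries, summed to 22.2, 624 and 1144 CPM over all cells.

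The share of the summed UMIs of a class that codes for ribosomal proteins was lower in each later stage of spermatogenesis in all 3 libraries. In the control, ribosomal protein UMIs were 18.3% of all UMIs in spermatogonia (exact binomial interval 18.2 to 18.4), 9.22% in leptotene to zygotene spermatocytes, 5.59% in pachytene to diplotene spermatocytes, 3.99% in round spermatids and 3.97% in elongating and condensing spermatids. With hairpin 1 the shares were 19.6%, 10.9%, 6.12%, 4.88% and 4.48% in the same order. With hairpin 2 they were 18.9%, 11.4%, 6.15%, 4.82% and 4.67%. Spermatogonia stood far above every later class in this share, and the round and elongating spermatids lay close together. Counts per cell took another course. In the control, ribosomal protein UMIs per cell were 2699, 3092, 2710, 1220 and 1073 in the same order. Before the spermatids they thus did not fall below the level of spermatogonia in the control. With hairpin 1 they were 2618 in spermatogonia, 2459 in leptotene to zygotene and 2115 in pachytene to diplotene spermatocytes. With hairpin 2 they were 2700, 3167 and 1860, so both hairpins were below their spermatogonia by pachytene. The order of the spermatids depended on the summary: the median cell had 3.69%, 4.39% and 4.52% in round spermatids and more, 4.10%, 4.58% and 4.72%, in elongating and condensing spermatids. Non-germ cells were higher than all germ classes, at 33.3%, 25.3% and 31.3%. The 95% intervals here and below cover counting error only and not variation between mice or libraries.

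Within each germ class the share was higher with both hairpins than in the control. Relative to the control, the difference was smallest in spermatogonia and largest in leptotene to zygotene spermatocytes and round spermatids. It was also seen in 13 of 14 germ clusters with each hairpin. The exception was cluster 10, the larger spermatogonial cluster, at 21.3% in the control and 20.8% with each hairpin. The classes were drawn from different clusters in the libraries. In round spermatids the largest cluster was cluster 2 in the control (232 of 429 cells) and with hairpin 1 (151 of 495), where it held a smaller part of the class, and cluster 1 with hairpin 2 (235 of 465). In cluster 2 alone the share was 3.56%, 3.998% and 4.09%. In cluster 1 it was 4.37%, 4.95% and 4.88%. Spermatogonia came mostly from cluster 12 in the control (28 of 54 cells) and from cluster 10 with the hairpins (91 of 149 and 111 of 178), whereas no cluster held most of the elongating spermatids: the largest was cluster 0 in the control and with hairpin 2 (212 of 605 and 205 of 467 cells) and cluster 3 with hairpin 1 (202 of 645). The assignment of cluster 12 was narrow (marker score 2.0 for spermatogonia against 2.13 for leptotene to zygotene). Depth moved with the groups: the median UMIs of a round spermatid were 15714, 11597 and 14470, and the mean mitochondrial share was 0.216%, 0.592% and 0.398% there. The part of these differences in the result was not tested.

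**Figure D1:**
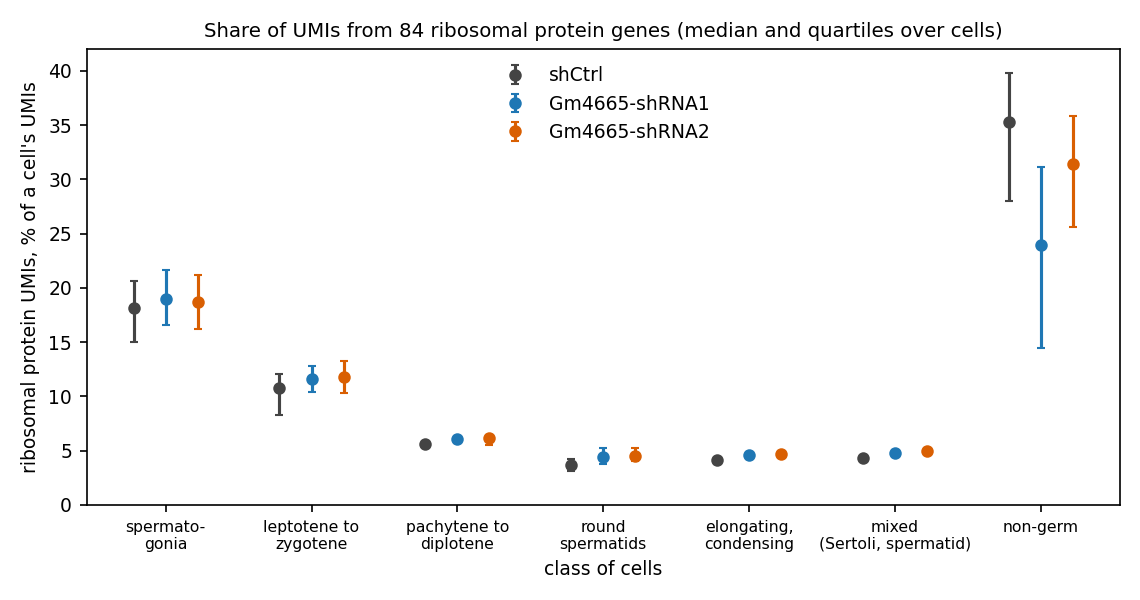
Share of each cell's UMIs that came from the 84 ribosomal protein genes, in percent (vertical axis), by class of cells (horizontal axis) and library (colour). Points are medians over cells and bars the quartiles over cells, not errors over mice; the medians run from 18.2% in control spermatogonia to 3.69% in control round spermatids, and are higher in elongating than in round spermatids in each library.

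Over all cells, ribosomal protein UMIs made up 5.09% of the control library, 6.57% of the hairpin 1 library and 8.49% of the hairpin 2 library. The median cell had 4.17%, 4.83% and 5.27%, so that the typical cell differed less than the sums. On the log2 scale of CPM plus 1, the median member was 0.36 higher with hairpin 1 and 0.80 higher with hairpin 2, against medians of 0.23 and 0.25 over all 7068 genes compared (mean of at least 10 CPM over the libraries and at least 30 UMIs). Of the 84 members, 82 passed this filter, all but Rpl3l (0.59, 0.63 and 0.99 CPM) and Rpl6l (7.99, 5.14 and 6.41 CPM). Their folds ran from -1.05 to 1.44 with hairpin 1 (quartiles 0.25 and 0.55) and from -1.02 to 2.67 with hairpin 2 (quartiles 0.66 and 0.96). At 1.5-fold or more, 17 of 82 were higher with hairpin 1 (16.5% of all genes compared) and 67 with hairpin 2 (26.2% of all genes). Of these, 16 were higher with both (11.4% of all genes), namely Rpl10, Rpl39, Rps4x, Rpl36a, Rps21, Rps28, Rps29, Rps27, Rps27a, Rps3, Rps3a1, Rpl4, Rpl37a, Rpl38, Rplp2 and Rpl7l1. The members lower at 1.5-fold were 1 with hairpin 1 (7.07% of all genes), 1 with hairpin 2 (10.6%) and 1 with both (4.97%), in each case Rpl29. The hairpin 1 count of 17 lies near the background share, and the hairpin 2 count lies far above it. In a sum over mixed cells, fewer cells of a type and less RNA per cell cannot be told apart.

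The mix of cells moved with these sums. Non-germ cells gave 5.83% of the ribosomal protein UMIs of the control, 11.2% with hairpin 1 and 25.1% with hairpin 2. Spermatogonia gave 7.08%, 15.5% and 12.7%, and elongating and condensing spermatids 31.5%, 23.5% and 12.9%. Over the 5 germ classes alone, the medians of the members were 0.29 and 0.54 against 0.21 and 0.27 for all genes, and the members called higher fell to 13 with hairpin 1 (13.9% of genes), 35 with hairpin 2 (25.9%) and 10 with both (9.89%). With the classes weighted as in the control, the medians were 0.10 and 0.18 against 0.11 and 0.08 for all genes. With these weights 2 of 82 members were higher with hairpin 1 (4.06% of genes), 1 with hairpin 2 (2.18%) and 1 with both (1.13%), and 19 members with hairpin 1 and 6 with hairpin 2 went from above to below the control. The medians of the members were thus smaller with these weights than over all cells, where they were 0.36 and 0.80. The weights include the non-germ class, with 21 control cells and shares of 33.3% in the control and 25.3% with hairpin 1. The part of the cell mix in the difference was not tested.

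Within classes the members differed from the control by small amounts. In spermatogonia their median was 0.06 with hairpin 1 and 0.04 with hairpin 2 (all genes -0.02 and 0.01), and 0 of 84 compared were higher with both hairpins at 1.5-fold (5.63% of all genes, and 9.39% and 9.55% with hairpin 1 and hairpin 2 singly). Leptotene to zygotene spermatocytes gave medians of 0.20 and 0.29 (all genes 0.07 and 0.08), with 1 of 82 higher with both (2.33%). Pachytene to diplotene spermatocytes gave 0.07 and 0.12 (all genes 0.00 and -0.02), with 0 of 79 higher with both (1.17%). Round spermatids gave 0.23 and 0.27 (all genes 0.17 and 0.10), with 3 of 79 higher with both (4.6%). Elongating and condensing spermatids gave 0.13 and 0.22 (all genes 0.06 and 0.03), with 4 of 78 higher with both (10.1%). Thus the members lay above the median gene in each class, by less than 0.25 on the log2 scale, and few reached 1.5-fold.

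**Figure D2:**
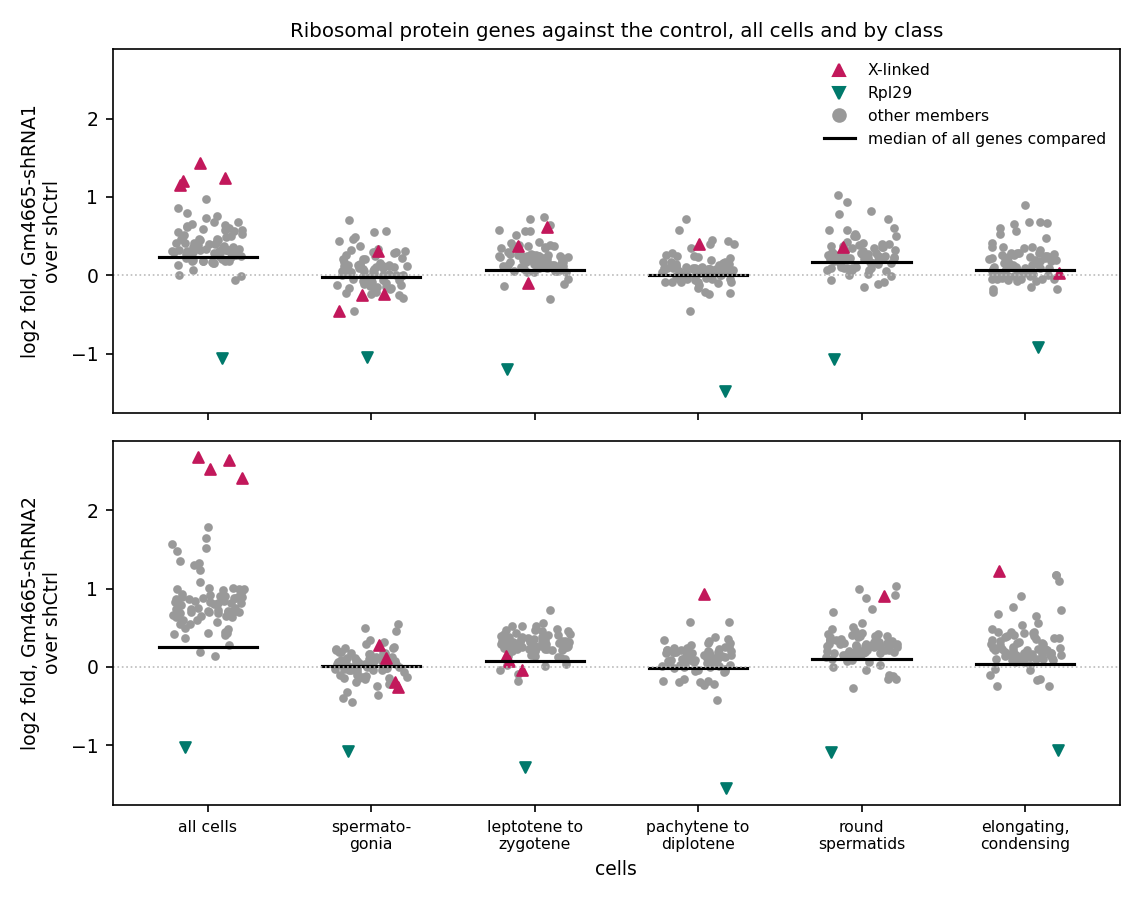
log2 fold of each compared ribosomal protein gene over the control (vertical axis; hairpin 1 above, hairpin 2 below) over all cells and in each germ class (horizontal axis). Each point is 1 gene, triangles mark the X-linked genes and Rpl29, and black bars give the median of all genes compared; the X-linked genes reach 2.42 to 2.67 with hairpin 2 over all cells, and Rpl29 lies below 0 in every column.

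The 4 X-linked members had the largest folds over all cells. Rpl10 (X:74270812-74273135), whose protein helps to complete the large subunit, was at 67.5, 162 and 365 CPM (2.37 and 5.34 times the control, with 1 CPM added to each level). Rpl39 (X:37082520-37085402), which lines the exit tunnel for the new protein, was at 54.7, 127 and 345 CPM (2.30 and 6.22 times). Rps4x (X:102184941-102189394), a small subunit gene, was at 54.1, 121 and 350 CPM (2.21 and 6.38 times). For all 3, the control was lowest and hairpin 2 highest, as it was for the large subunit gene Rpl36a (X:134585654-134588062) at 45.7, 125 and 268 CPM (2.70 and 5.75 times). Non-germ cells gave 67.1%, 72.7% and 85.4% of the UMIs of these 4 genes in the 3 libraries. With the classes weighted as in the control, Rpl10, Rpl39 and Rps4x lay below the control with hairpin 1 (log2 -0.17, -0.21 and -0.44). Their direction over all cells thus turned, but these weights include the non-germ class, which had only 21 control cells. In that class the 3 genes were at 4890, 3833 and 5426 CPM in the control and 4152, 3308 and 3866 with hairpin 1. The turn thus rests in part on a class too small in the control for a comparison.

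In spermatogonia, where the X chromosome is active, these genes did not stand out. Rpl10 was at 674, 569 and 589 CPM, Rpl39 at 660, 480 and 555 CPM, and Rps4x at 128, 108 and 138 CPM. Rpl36a was at 975.4, 1210 and 1186 CPM. The control was thus highest for Rpl10 and Rpl39 and lowest for Rpl36a, with log2 folds between -0.46 and 0.31. For Rpl10 the control was also highest within clusters 10 and 12. For Rpl39 the order depended on the cluster. It was at 297, 236 and 371 CPM in cluster 10 and at 1104, 1092 and 944 CPM in cluster 12. The part of the cluster mix in the order for the class was not tested. From spermatogonia to leptotene to zygotene spermatocytes of the control, Rpl10 went down to 19.3, Rpl39 to 31.9, Rps4x to 4.56 and Rpl36a to 13.7 CPM. In pachytene to diplotene spermatocytes they were at 8.80, 2.78, 1.85 and 1.85 CPM, the last 3 resting on 12, 8 and 8 UMIs. Rpl10 thus was 76.6 times, and Rpl36a 526 times, lower there than in spermatogonia of the control.

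The autosomal copies were higher in pachytene to diplotene spermatocytes than in spermatogonia or nearly level with them, and all 3 were lower again in spermatids. Rpl10l (12:66283379-66284401, a gene of 1 exon) was at 38.9 CPM in spermatogonia, 105 in leptotene to zygotene, 147 in pachytene to diplotene, 52.1 in round spermatids and 11.4 in elongating spermatids of the control. Rpl39l (16:10170226-10174911) was at 545, 1277, 1523, 872 and 428 CPM in the same order. These were the only members of the 82 whose highest germ class in the control was not spermatogonia. Rpl36al (12:69182731-69184083), the copy of Rpl36a and not a member by symbol, was nearly level through pachytene, at 692, 591 and 597 CPM, and then at 370 and 213 CPM in spermatids. Rpl39l was thus far more abundant than Rpl10l in every germ class, and no copy dropped after spermatogonia the way its parent did.

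The share of the copy among parent and copy UMIs shows the exchange. For Rpl10l in the control it went from 5.46% in spermatogonia (exact interval 3.74 to 7.66) to 84.5% in leptotene to zygotene and 94.4% in pachytene to diplotene spermatocytes (92.3 to 96.0), and was 81.1% in round and 62.2% in elongating spermatids. For Rpl39l it went from 45.2% to 97.6% and 99.8%, and stayed at 99.7% and 99.0% in spermatids. Rpl36al went from 41.5% to 97.7% and 99.7%, and stayed at 99.2% and 99.0%. The same course was present with both hairpins: in pachytene to diplotene spermatocytes Rpl10l had 92.7% and 87.6%, Rpl39l 99.8% and 99.3%, and Rpl36al 99.7% and 98.8%. Near-identical transcripts bear on these counts: 10 other annotated genes share the 3' end of Rpl10, 2 that of Rpl39, 3 each those of Rps4x and Rpl36a, and none those of Rpl10l and Rpl39l. The copy Rpl36al has 2 such genes as well.

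**Figure D3:**
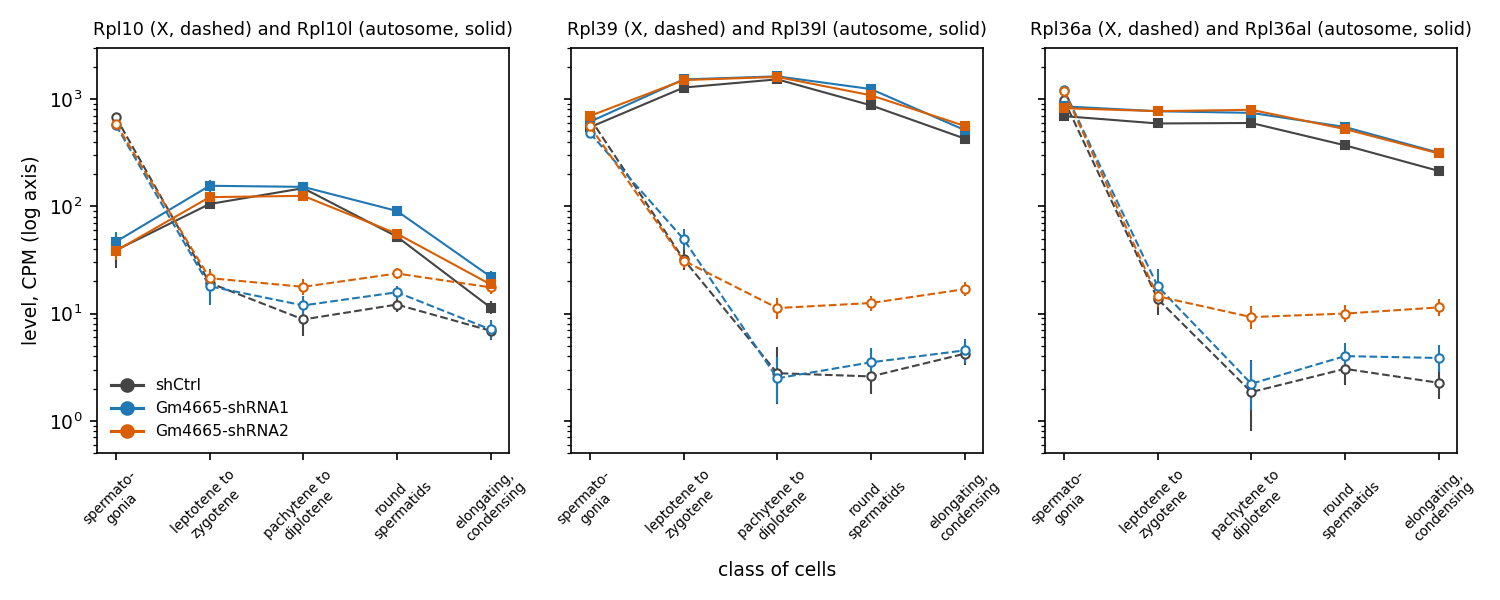
Levels of the X-linked genes Rpl10, Rpl39 and Rpl36a (dashed, open circles) and of their autosomal copies (solid, squares) in CPM on a log axis, by germ class and library (colour). Bars are exact Poisson intervals for counting error; from spermatogonia to pachytene the X-linked gene drops in each panel while the copy rises or stays nearly level, the copies are lower again in spermatids, and hairpin 2 has the highest X-linked level from pachytene on.

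From pachytene on, hairpin 2 had more X-linked UMIs than the other libraries. In round spermatids Rpl10 was at 12.1, 15.8 and 23.6 CPM, Rpl39 at 2.59, 3.51 and 12.5, Rps4x at 1.53, 1.92 and 12.8, and Rpl36a at 3.05, 4.01 and 9.99. The Poisson intervals of hairpin 2 lay above those of the control for all 4 genes (for Rpl39 10.6 to 14.6 against 1.80 to 3.62). The share of round spermatids with a Rpl39 UMI was 7.69%, 7.07% and 27.3%, and 2.77%, 3.16% and 9.41% after thinning each cell to 10000 UMIs (leaving out 70, 530 and 332 shallower cells of the libraries), against 100% of non-germ cells in every library, which had median depths of 13957, 9686 and 13007 UMIs. The B and plasma cell markers moved the same way and summed to 4.88, 17.8 and 189 CPM in round spermatids. Jchain alone gave 1.75, 12.3 and 173 CPM of these sums. Other immune cell lists did not move this way. Macrophage markers summed to 39.3, 22.2 and 26.5 CPM there, and T and NK cell markers to 60.7, 43.6 and 56.8 CPM. Relative to non-germ cells of the same library, round spermatids of hairpin 2 had 0.514% of the level of Rpl10, 0.286% of Rpl39, 0.262% of Rps4x and 0.358% of Rpl36a. For the immune cell genes Mzb1, Cd52, Cd74 and B2m, chosen after their levels were seen, the values were 0.415%, 0.344%, 0.289% and 0.557%. The X-linked genes and these 4 immune cell genes thus lay in the same range in hairpin 2, but not all did in the other libraries. With hairpin 1, Rpl10 (0.380%) and Rpl36a lay above all 4 immune cell genes, of which Mzb1 was highest at 0.135%. In the control, Rpl10 (0.248%) lay above all 4, with Mzb1 highest at 0.187%. Rpl39 and Rps4x lay within the range of the 4 in both libraries. Jchain, a plasma cell gene outside these 4, was at 0.357%, 0.0703% and 1.48% in the 3 libraries. The part of RNA from other cells in the X-linked UMIs of spermatids was not tested.

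**Figure D4:**
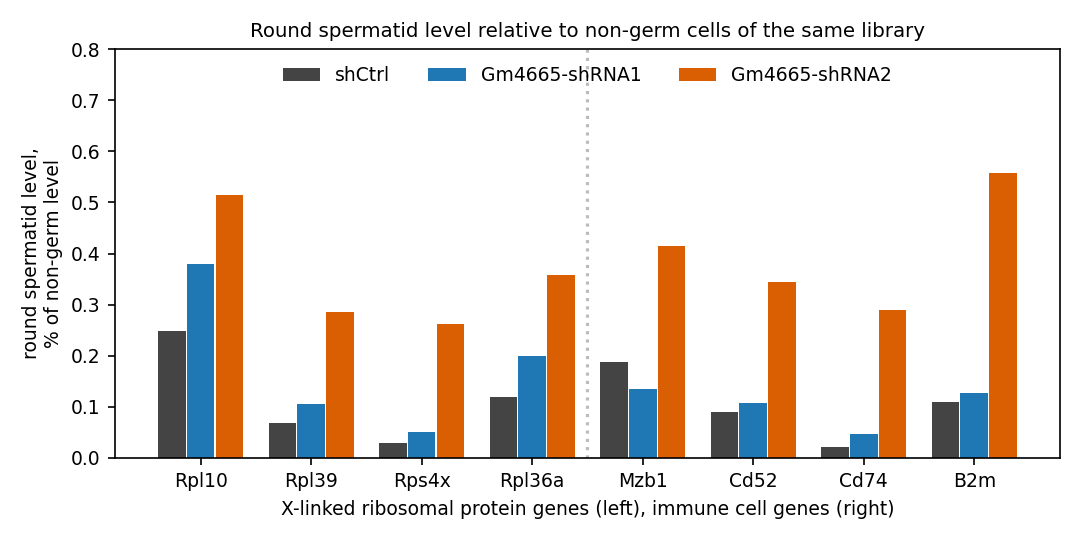
Level in round spermatids as a percent of the level in non-germ cells of the same library (vertical axis) for the 4 X-linked ribosomal protein genes and 4 immune cell genes (horizontal axis), with 1 bar per library. All 8 genes are highest with hairpin 2, between 0.262% and 0.557%. Jchain, at 1.48% with hairpin 2, is not drawn.

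Over all cells, the share of the copy differed between libraries mainly with the level of its parent. Rpl10l made up 40.6%, 31.6% and 14.5% of its pair, while its own level was 46.1, 74.5 and 61.7 CPM. Rpl39l made up 93.2%, 88.6% and 74.2%, at levels of 749, 990 and 993 CPM. Rpl36al made up 88.4%, 81.2% and 69.8%, at 347, 542 and 619 CPM. Each copy was lowest in the control, yet its share was highest there. In the 5 germ classes alone the Rpl10l share was 67.0%, 64.7% and 54.3%.

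Rpl10l was higher with hairpin 1 in spermatids, by an amount that depended on the clusters compared. In the class of round spermatids it was at 52.1, 90.4 and 55.5 CPM (log2 fold 0.78 and 0.09), and in elongating spermatids at 11.4, 22.1 and 18.7 CPM (0.90 and 0.67). Within round spermatid clusters it was at 72.5, 88.7 and 54.8 CPM in cluster 1, 26.8, 36.3 and 31.2 in cluster 2, 112, 133 and 85.3 in cluster 9, and 27.8, 64.9 and 50.2 in cluster 11, which had 19 control cells. Hairpin 1 was thus above the control in all 4 clusters (1.18 to 2.34 times), whereas hairpin 2 was below it in clusters 1 and 9 and above it in the other two. In the 4 clusters of elongating spermatids both hairpins were above the control (1.63 to 1.94 and 1.52 to 1.61 times). In pachytene to diplotene spermatocytes it was at 147, 152 and 125 CPM, where hairpin 1 was close to the control and hairpin 2 below it. A Rpl10l UMI was found in 54.8%, 63.8% and 60.9% of round spermatids, and in 33.8%, 56.5% and 41.8% after thinning. Non-germ cells, which should lack it, had one in 4.76%, 21.9% and 24.0% of cells and in 4.76%, 23.3% and 15.3% after thinning.

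Other paralogues exchanged as well, without a link to the X chromosome. Rpl22 and Rpl22l1 encode alternative forms of 1 large subunit protein. In the control, Rpl22 was at 1578 CPM in spermatogonia and 123 in pachytene to diplotene spermatocytes, while Rpl22l1 was at 560 and 521 CPM. The Rpl22l1 share of the pair was 26.2% in spermatogonia, 32.7% in leptotene to zygotene, 80.9% in pachytene to diplotene, 73.9% in round and 43.9% in elongating spermatids. With hairpin 1 it was 27.4%, 30.6%, 80.3%, 75.03% and 48.1%, and with hairpin 2 29.0%, 29.8%, 77.5%, 72.4% and 44.1%. The pattern over classes was far larger than any difference between libraries.

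Rps27 and Rps27l, small subunit paralogues, showed a different course. The Rps27l share in the control was 26.5% in spermatogonia, 36.3% in leptotene to zygotene, 15.8% in pachytene to diplotene, 14.0% in round and 7.43% in elongating spermatids. The highest share was thus in early meiosis, and with the hairpins it was 32.0% and 31.9% there. Rpl7l1, a paralogue of Rpl7, had at most 10.6% of its pair in a germ class. Rpl3l, a paralogue of Rpl3 known from striated muscle, was at 18.8, 9.05 and 13.7 CPM in spermatogonia on 15, 18 and 35 UMIs. It was not detected in pachytene to diplotene spermatocytes of the control, where 0 of 1009 Rpl3 and Rpl3l UMIs allow a share of up to 0.365% (exact upper bound).

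**Figure D5:**
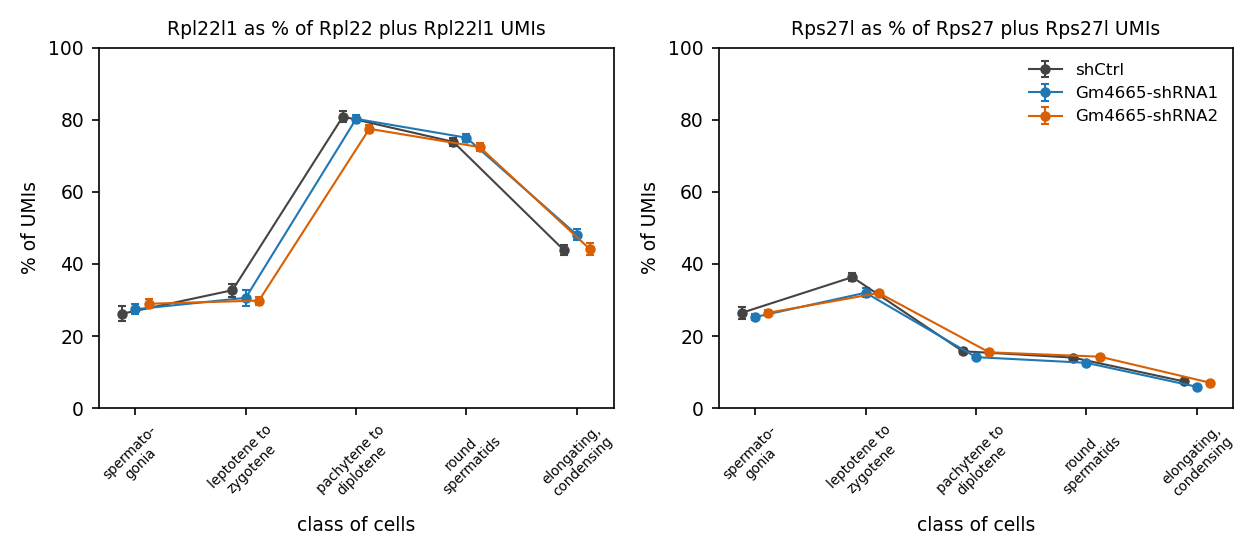
Share of the paralogue in the UMIs of its pair, in percent (vertical axis), by germ class (horizontal axis) and library (colour), for Rpl22l1 (left) and Rps27l (right). Bars are exact 95% binomial intervals; Rpl22l1 rises to 80.9% in pachytene to diplotene spermatocytes of the control and Rps27l peaks at 36.3% in leptotene to zygotene spermatocytes.

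The most abundant members of the control were Rpl41, Rps20, Rpl32, Rps29 and Rpl36. Rpl41, which encodes a very short peptide of the large subunit, was at 2925, 3618 and 4119 CPM. Rps20, a small subunit gene, was at 2115, 2092 and 2319 CPM and so was nearly equal in the libraries. Rps20 was also the most level member over germ classes of the control, at 2616 CPM in spermatogonia, 1414 in round and 2584 in elongating spermatids. The median member was 5.47 times as high in control spermatogonia as in elongating spermatids, and the members ranged from 1.01 times (Rps20) to 299 times (Rpl36a). Among autosomal members Rpl14 had the steepest profile, 3039 against 22.2 CPM (131 times), and was chosen after its values were seen. Of the 82 members, 80 had their highest CPM in spermatogonia of the control, and 44 had their lowest in elongating and 36 in round spermatids. CPM is a share of UMIs and not a count per cell.

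Rps28 and Rps21, both of the small subunit, stood above the control with both hairpins also within classes. Rps28 was at 832, 1515 and 1669 CPM over all cells (1.82 and 2.01 times the control). In spermatogonia it was at 3869, 5656 and 4840 CPM, in leptotene to zygotene spermatocytes at 1456, 2438 and 2410 CPM, and in round spermatids at 619, 1096 and 1006 CPM. Its control level was lowest in all 5 classes. Rps21 was at 241, 475 and 609 CPM over all cells (0.97 and 1.33), with log2 folds of 0.45 to 0.65 with hairpin 1 and 0.24 to 0.72 with hairpin 2 within classes. Rps29 was at 1465, 2538 and 2429 CPM over all cells (0.79 and 0.73), and at 1312, 2168 and 1750 CPM in round spermatids.

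In round spermatids 73 of 79 compared members were above the control with hairpin 1 and 71 with hairpin 2 (median log2 folds 0.23 and 0.27). Rps3, Rpl4 and Rps27a lay above these medians with both hairpins, and Rpl14 with hairpin 2 only. Rps3, a small subunit gene of the mRNA entry site, had log2 folds of 0.51 and 1.03 in round spermatids, and Rpl14 had 0.17 and 0.91. Their levels in control round spermatids were 35.7 and 28.9 CPM, against 4374 and 4202 CPM in non-germ cells. Rpl4 and Rps27a had about equal folds with both hairpins (1.02 and 1.0 for Rpl4, 0.93 and 0.88 for Rps27a), at control levels of 95.8 and 62.5 CPM against 3447 and 5595 CPM in non-germ cells. Rps27a encodes ubiquitin fused to a small subunit protein. These 4 were chosen after their values were seen, and the part of RNA from other cells in their folds was not tested.

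Rpl29 was the only member lower by 1.5-fold with both hairpins over all cells. This large subunit gene (9:106429454-106431568) was at 42.9 CPM in the control (40.9 to 44.98), 20.2 with hairpin 1 (18.8 to 21.6) and 20.7 with hairpin 2 (19.4 to 22.1), log2 folds of -1.05 and -1.02. It was lower in all 5 germ classes: 72.8, 34.7 and 34.1 CPM in spermatogonia, 66.0, 28.2 and 26.6 in leptotene to zygotene, 58.1, 20.2 and 19.2 in pachytene to diplotene, 33.6, 15.5 and 15.4 in round and 37.4, 19.3 and 17.4 in elongating spermatids. Both hairpin libraries lay close together and below the control, by -0.92 to -1.55 on the log2 scale. Non-germ cells had 194 CPM in the control and 38.8 with hairpin 2. Rpl29 shares its 3' end with 24 other annotated genes, so its count is uncertain. Among the members only Rps2, with 28, has more.

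The stalk proteins and the ribosome's surface proteins did not move as 1 group. Rplp0, the base of the stalk that binds elongation factors, was at 1219, 1278 and 1392 CPM over all cells, and within every germ class hairpin 2 was below the control (log2 fold -0.18 to -0.45), as it was with control class weights (-0.29). Rplp1 was at 854, 1069 and 1390 CPM and Rplp2 at 616, 950 and 1178 CPM. Within classes Rplp2 had folds of 0.08 to 0.34, whereas Rplp1 had 0.04 to 0.25. Rpsa, which also serves as a laminin receptor precursor, was at 317, 407 and 550 CPM over all cells (-0.093 with hairpin 2 under these weights) but at 279, 299 and 251 CPM in round spermatids. Rack1, a signalling scaffold on the small subunit and not a member, was at 72.0, 117 and 230 CPM (0.69 and 1.66).

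Genes that make or use ribosomes were described from lists chosen by function. Of 32 compared ribosome assembly factors, 14 were higher at 1.5-fold with hairpin 1 and 24 with hairpin 2 over all cells (16.5% and 26.2% of all genes; medians 0.51 and 0.77), among them Npm1 at 289, 412 and 514 CPM and Nop10 at 264, 432 and 470 CPM. Within spermatogonia the list's medians were 0.05 and 0.12, and 2 and 3 of 46 were higher (9.39% and 9.55% of all genes). Mitochondrial ribosomal proteins had medians of 0.38 and 0.67 over 69 genes, with 16 and 40 higher and 1 lower with each hairpin, so that the hairpin 1 count lay nearer the 16.5% of all genes than the hairpin 2 count the 26.2%. Translation factors lay at or below the median gene with hairpin 1: 32 initiation factors had medians of 0.23 and 0.32 with 3 and 8 higher (shares below or near those of all genes), and 13 elongation and termination factors 0.13 and 0.17 with 1 and 4 higher. Eef2, the translocation factor, was at 676, 738 and 772 CPM, and Eif4h, which aids unwinding of the mRNA start, at 666, 470 and 446 CPM. The 5 compared regulators of ribosomal protein mRNA translation had medians of 0.23 and 0.44, and Larp1, which binds these mRNAs at their start, was at 48.9, 47.5 and 49.2 CPM. For rows of ribosomal protein pseudogenes the medians were -0.15 and 0.23 over 10 rows, and they were below 0 with both hairpins in every germ class (-0.63 and -0.62 over 11 rows in spermatogonia).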

How the data were processed

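The table held natural log (ln) values that the authors deposited, ln of 1 plus 10000 times a gene's share of a cell's UMIs. The submitters' processing notes name mm10, Cell Ranger 1.3.1 and Seurat 2.0.0. Dividing by each cell's smallest non-zero value gave back whole UMIs (100.0% of 20140203 values within 0.01). Columns of the hairpin libraries were matched to their titles by the final digit alone. No cell was removed, doublets were not called, and 0 columns of samples were left unused.

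UMIs were summed per class and library and scaled to CPM. Folds used a pseudocount of 1 CPM and were called at 1.5-fold. Clustering used scanpy 1.11.5 and Python 3.11.15 (2000 variable genes, 30 components, 15 neighbours, Leiden resolution 0.8), and a class was compared at 50 cells or more per library. Intervals are exact Poisson or Clopper-Pearson at 95%. Positions are from GENCODE vM21. A transcript was near-identical if at least 98% identical over at least 98 of the last 300 bases (blastn 2.17.0). Steps were tested on simulated data.

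Named genes were the X-linked members and copies, paralogue pairs, the 5 most abundant members, the 6 highest and 6 lowest by the smaller fold among those with 1 direction (1 was lower), stalk genes with Rpsa and Rack1, members with another top class, and up to 3 genes a list. Members and lists were chosen with earlier results of these data known. Alternatives changed scaling, filters, thresholds, clustering, depth and cell mix.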

Additional observations from a re-analysis of the deposited data

How the results depend on the processing

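The summed member UMIs differed from the control by 0.37 and 0.74 (log2; hairpin 1, hairpin 2), the medians were 0.36 and 0.80, 16 members were higher and 1 lower with both hairpins. The sums and medians stayed above 0 in every setting run. With TMM factors, which moved the median of all genes to -0.04 and -0.09, the sums were 0.092 and 0.39, the medians 0.083 and 0.46 and the count higher 6. Median-of-ratios factors gave 0.084 and 0.34, 0.076 and 0.41, and 5. Totals without the 20 most abundant genes gave 0.31 and 0.66, and 0.30 and 0.73. The mean of the cells' shares gave 0.43 and 0.80. Germ classes alone gave 0.31 and 0.51, 0.29 and 0.54, and 10. Cells thinned to 10000 UMIs gave 0.44 and 0.83, 0.44 and 0.90, and 25. Control class weights gave 0.17 and 0.21, 0.10 and 0.18, and 1. Members without near-identical copies gave medians of 0.41 and 0.87, 4 higher and 0 lower. A threshold of 2-fold gave 4 higher and a looser one gave 47. A mean of at least 100 CPM left 0 lower, since Rpl29 is below it.

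The copy shares (control, hairpin 1, hairpin 2) in germ classes were 67.0%, 64.7% and 54.3% for Rpl10l, 97.5%, 97.0% and 95.4% for Rpl39l, and 93.6%, 88.2% and 86.8% for Rpl36al. Thinned cells gave 24.2%, 24.4% and 9.80%, 87.5%, 83.8% and 65.1%, and 81.1%, 73.3% and 62.8%. Control class weights gave, for the hairpins, 53.1% and 40.7%, 95.2% and 93.2%, and 91.3% and 89.1%. These weights, which include the non-germ class with its 21 control cells, took 19 of 82 members below 0 with hairpin 1 and 6 with hairpin 2. Of those called higher, these were Rpl10 (-0.17), Rpl39 (-0.21), Rps4x (-0.44) and Rps3 (-0.0063) with hairpin 1, and Rps2 (-0.19) and Rpsa (-0.093) with hairpin 2. Those not called higher that turned with hairpin 2 included Rplp0 (-0.29), Rpl35 (-0.16) and Rps24 (-0.017).

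The member share in spermatogonia over elongating spermatids was 2.20, 2.13 and 2.01 (log2), 2.11, 2.06 and 1.96 at Leiden resolution 1.2, 2.01, 2.07 and 1.96 when members entered the clustering, and 2.14 at resolution 0.5 for hairpin 1. Where no construction is named the cause was not tested. No paired analysis was possible because each group had 1 library. X-linked genes under about 10 CPM in spermatids rest on few UMIs.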

Other observations

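Ribosomal protein genes with shorter annotated transcripts lay higher with the hairpins than those with longer ones in all 5 germ classes. Length was that of the first annotated protein-coding transcript of a gene, which need not be the mRNA expressed (Rps20 had 3706 bases). The 4 X-linked members were left out. In spermatogonia the 26 shortest of 79 members (345 to 614 bases of annotated transcript) had a median log2 fold of 0.14 with hairpin 1 and 0.13 with hairpin 2, and the 26 longest (977 to 3706 bases) had -0.02 and -0.02. In leptotene to zygotene spermatocytes the medians were 0.26 and 0.36 for the short and 0.19 and 0.25 for the long members. In round spermatids they were 0.28 and 0.31 against 0.23 and 0.22. The 260 compared genes of any kind with at most 614 bases, the short members included, had medians of 0.08 and 0.07 in spermatogonia. All genes had -0.02 and 0.01 there. In round spermatids the 243 genes up to that length had 0.196 and 0.199, against 0.191 and 0.109 for all genes. Over all cells, short members were higher than long ones with hairpin 1 (0.41 against 0.36) but not with hairpin 2 (0.73 against 0.79). Both hairpins share the control library, and the part of library handling in the pattern was not tested.

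The ratio of large to small subunit UMIs was lower with both hairpins in each germ class. It was 1.26, 1.24 and 1.24 in spermatogonia, 1.42, 1.40 and 1.40 in leptotene to zygotene, 1.42, 1.36 and 1.35 in pachytene to diplotene, 1.36, 1.33 and 1.32 in round and 1.35, 1.34 and 1.29 in elongating spermatids of the control, hairpin 1 and hairpin 2. Single abundant genes weigh on this ratio. In round spermatids the median member had log2 folds of 0.23 and 0.27. Rps27, Rps28 and Rps29, chosen after their values were seen, had 0.58, 0.82 and 0.72 with hairpin 1 there. With hairpin 2 they had 0.43, 0.70 and 0.42. The ratio without them was not computed, and the mix of clusters within a class was not held fixed.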
